A study of Mus musculus with 4 samples.

Results

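Megalin, cubilin, amnionless, DAB2 and ClC-5 are the proteins of the apical endocytic machinery with which the proximal tubule of the kidney takes filtered protein back from the urine. Their genes, Lrp2, Cubn, Amn, Dab2 and Clcn5, were read by symbol in deposited tables of single-nucleus RNA from mouse kidney, and all 5 were measured among 24468 genes in a table of 17 cell clusters and among 21312 genes in a table of proximal tubule nuclei. The treated group, Cis9w, consisted of male C57BL/6 mice that had received 4 weekly injections of 8 mg/kg cisplatin, a platinum drug against cancer that harms the kidney, with kidneys taken 9 weeks after the first injection. The comparison group, CT9w, was untreated, and each group had 2 samples. The tissue was cortex with outer medulla, and neither ages nor the number of animals per sample were given in the sources used here.

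Megalin is a very large receptor of the LDL receptor family that spans the brush border membrane and binds albumin, vitamin carriers and many other filtered ligands. Cubilin has no membrane-spanning segment, and amnionless anchors it and brings it to the cell surface. DAB2 is a clathrin adaptor that binds the tail of megalin, and ClC-5 is a chloride/proton exchanger of the endosomes into which the receptors are carried. Inherited defects of megalin, cubilin, amnionless or ClC-5 in humans cause loss of low molecular weight protein or albumin into the urine.

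The values were averages of unique molecular identifiers (UMIs, counts of captured RNA molecules) per nucleus, normalised by the authors so that each column of a table had the same total. Each column pooled nuclei of samples that the columns do not name. No spread between samples could therefore be computed, and intervals are 95% counting intervals that leave out differences between nuclei and between animals. Nearly every average was a whole multiple of 1 step (99.995% of genes or more in each column came within 0.1 UMI), which gave back the UMI sums. These were 8557662 in the Cis9w and 5123727 in the CT9w proximal tubule pool, and between 254460 (mixed-2) and 7425098 (PT-S2/S3) in the 17 clusters. In such pools, fewer nuclei with a transcript and less transcript per nucleus cannot be told apart. The clusters were formed by the authors from the same nuclei, so levels by cluster are descriptions.

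The genes lie on 4 chromosomes of GRCm38 (the assembly of mm10). Lrp2 (ENSMUSG00000027070) spans chr2:69424340-69586065 on the minus strand with 79 exons in its transcript of most exons. Cubn (ENSMUSG00000026726) spans chr2:13276338-13491813 on the minus strand with 67 exons, and Amn (ENSMUSG00000021278) spans chr12:111271095-111276426 on the plus strand with 12. Amn covers 5.33 kb, against 140.9 to 215.5 kb for the other genes. Dab2 (ENSMUSG00000022150) spans chr15:6299788-6440712 on the plus strand and Clcn5 (ENSMUSG00000004317) spans chrX:7153810-7319358 on the minus strand, each with 15 exons.

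Promoter sequence is shown for the receptor genes Lrp2 and Cubn, whose levels followed each other most closely over the clusters, and for Amn, the partner of cubilin. The stretches come from RefSeq windows on GRCm38.p6 that reach from 250 bases before to 50 bases after each start, and all 5 genes had a window. Printed are the bases that lie upstream of both the RefSeq and the GENCODE start, 5′ to 3′ on the strand of the gene. They are chr2:69586066-69586279 (minus strand) for Lrp2, chr2:13491877-13492126 (minus strand) for Cubn and chr12:111270846-111271094 (plus strand) for Amn. Capitals mark matches on either strand to any of 4 motifs, CAAAGT (HNF4), AGGTCA (nuclear receptors), GGGCGG (Sp1) and TCACGTG (TFEB), of which none overlapped another.
Lrp2: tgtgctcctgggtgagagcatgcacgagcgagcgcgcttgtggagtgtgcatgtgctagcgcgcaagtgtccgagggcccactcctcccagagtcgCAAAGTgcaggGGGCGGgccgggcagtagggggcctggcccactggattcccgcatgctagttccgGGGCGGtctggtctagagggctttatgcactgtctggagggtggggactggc
Cubn: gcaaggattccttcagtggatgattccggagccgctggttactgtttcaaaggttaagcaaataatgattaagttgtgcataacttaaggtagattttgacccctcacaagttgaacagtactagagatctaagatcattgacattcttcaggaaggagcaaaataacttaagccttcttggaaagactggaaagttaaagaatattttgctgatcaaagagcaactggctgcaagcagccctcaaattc
Amn: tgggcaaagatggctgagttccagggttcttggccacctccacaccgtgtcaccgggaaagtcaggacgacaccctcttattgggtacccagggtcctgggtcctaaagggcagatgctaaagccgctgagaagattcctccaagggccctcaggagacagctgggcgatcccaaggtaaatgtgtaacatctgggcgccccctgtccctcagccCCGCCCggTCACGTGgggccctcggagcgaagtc

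Lrp2 and Cubn, close in level pattern, had different letters upstream. The Lrp2 window held CAAAGT with its first base at -154 and GGGCGG at -143 and -88, counted from the RefSeq start. The Amn window held GGGCGG on the opposite strand at -35 and TCACGTG at -27, and the Cubn window held none of the 4 motifs. Of the windows not printed, the pair for Dab2 held CAAAGT at -237 in one. The other held GTTAAT, an HNF1 half-site that is not among the 4 motifs, at -65. The pair for Clcn5 held GGGCGG at -114 in one and CAAAGT at -212 in the other, both on the opposite strand. Matches to these motifs are common, since of 32851 windows of this kind 35.7% held GGGCGG, 16.3% AGGTCA, 14.4% CAAAGT, 7.10% GTTAAT and 3.77% TCACGTG. They describe letters in these windows and show no binding.

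In the proximal tubule clusters named for segments, Lrp2 and Cubn were high in all segments, while Dab2 was high in the early segments and low in the last. The authors named 5 clusters for segments, here taken along the tubule as PT-S1, PT-S2, PT-S2/S3, PT-S3-1 and PT-S3-2. These names matched segment markers, as the S1 transporter gene Slc5a12 had averages of 14.7 in PT-S1 and 0.119 in PT-S3-2 (normalised UMIs per nucleus), and the S3 transporter gene Slc7a13 averaged 0.0567 in PT-S1 and 5.08 in PT-S3-2. Between the ends the order was not even, since Slc5a12 averaged 0.429 in PT-S2/S3 and 0.842 in PT-S3-1, and Slc5a2, another S1 marker, 0.0411 in PT-S2/S3 and 0.102 in PT-S3-1.

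Lrp2, the megalin gene, averaged 5.00, 5.83, 5.70, 3.55 and 4.67 normalised UMIs per nucleus in PT-S1, PT-S2, PT-S2/S3, PT-S3-1 and PT-S3-2. Cubn, the cubilin gene, averaged 1.99, 1.81, 1.70, 1.38 and 1.81 in the same order. For both genes PT-S3-1 was the lowest of these clusters. PT-S3-1 also held the most markers of other cell types among them, with sums of 5.27 for thick ascending limb markers (1.91 to 2.28 in the other 4), 3.26 for distal tubule markers (0.551 to 0.811), 0.576 for endothelial markers (0.116 to 0.145) and 0.352 for intercalated cell markers (0.0472 to 0.0860). Their part in its levels was not tested. For both genes PT-S1 stood only a little above PT-S3-2, by a ratio of 1.07 (1.04 to 1.10) for Lrp2 and 1.10 (1.05 to 1.15) for Cubn. Relative to PT-S1, the quotient of Cubn to Lrp2 was 0.783 (0.746 to 0.821) in PT-S2 and 0.752 (0.721 to 0.785) in PT-S2/S3. It was 0.983 (0.905 to 1.07) in PT-S3-1 and 0.979 (0.930 to 1.03) in PT-S3-2, so megalin transcripts were high relative to cubilin transcripts in the middle of the tubule only, within these 5 clusters.

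Dab2, the adaptor gene, averaged 10.0, 9.15, 7.04, 2.20 and 1.13 normalised UMIs per nucleus along the same 5 clusters. Its level in PT-S1 was 8.86-fold that in PT-S3-2 (8.48 to 9.28) and 4.55-fold that in PT-S3-1 (4.32 to 4.80). Set against megalin, the quotient of Dab2 to Lrp2 relative to PT-S1 was 0.785 in PT-S2, 0.618 in PT-S2/S3, 0.310 in PT-S3-1 and 0.121 (0.115 to 0.128) in PT-S3-2. PT-S3-2 thus carried 80.1% of the highest Lrp2 average of these clusters and 11.3% of the highest Dab2 average.

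Amn, which encodes amnionless, stood at 0.0923 normalised UMIs per nucleus in cluster PT-S1 and between 0.0576 and 0.0657 in the other 4 segment clusters. Between PT-S1 and PT-S3-2 its ratio was 1.60 (1.27 to 2.03), and the levels of the 4 clusters below PT-S1 did not differ between neighbours in order beyond counting error. Clcn5, the exchanger gene, averaged 0.258 in PT-S1, 0.233 in PT-S2, 0.192 in PT-S2/S3, 0.173 in PT-S3-1 and 0.193 in PT-S3-2. Its ratio of PT-S1 to PT-S3-2 was 1.34 (1.17 to 1.52).

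**Figure D1:**
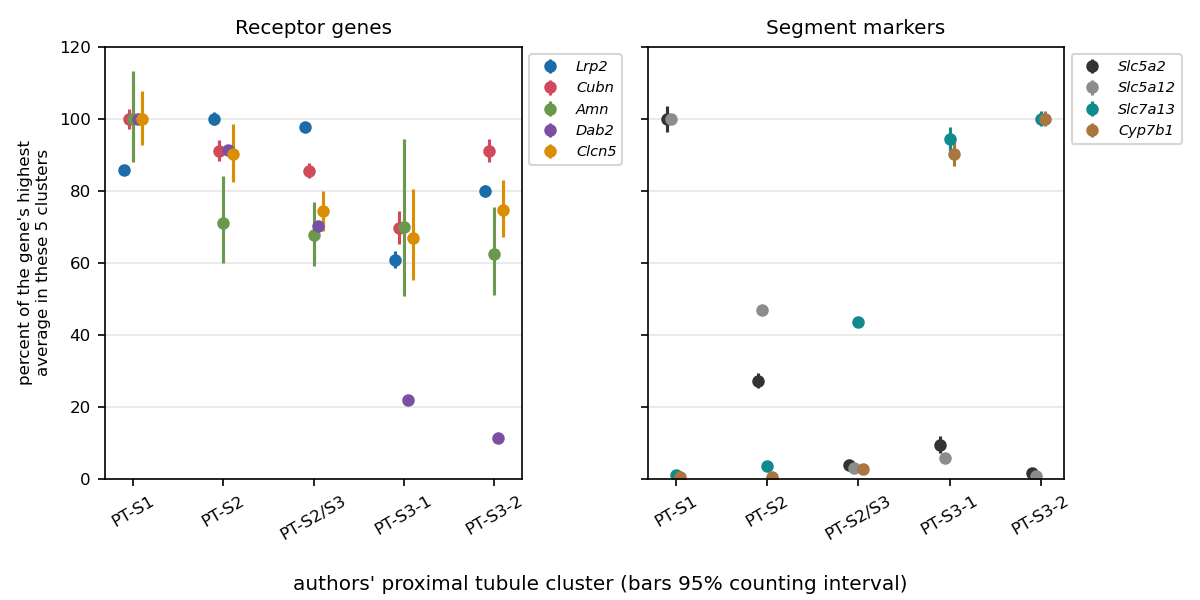
Average of each gene in the 5 segment clusters of the proximal tubule, as a percent of that gene's highest average among them (vertical axis, linear), with 95% counting intervals as bars; the left panel holds the receptor genes and the right panel 4 segment markers. Dab2 stands at 22.0% in PT-S3-1 and 11.3% in PT-S3-2, while Lrp2, Cubn, Amn and Clcn5 lie between 60.9% and 100% in all 5 clusters.

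The authors' own test of each cluster against all other nuclei gave calls for each of the 5 genes, taken here at a deposited p under 0.05. Dab2 was higher in PT-S1 (log2 fold change 1.43, p = 5.39e-06), PT-S2 (1.19, p = 0.00207) and PT-S2/S3 (0.82, p = 0.0112) in the authors' deposited table. It was lower in PT-S3-2, at log2 -2.09 and p = 1.22e-04 in the authors' deposited table. Lrp2 was higher in PT-S2 (p = 0.0483) and PT-S2/S3 (p = 0.00157), Cubn in PT-S1 (p = 0.00929) and PT-S2/S3 (p = 0.0369), and Amn in PT-S1 (p = 0.00858) in the authors' deposited table. Clcn5 was higher in IC-A/IC-B, the intercalated cells of the collecting duct, and nowhere else, with a log2 fold change of 1.86 and p = 0.00146 in the authors' deposited table. By the same rule 2.9% of all genes were higher in PT-S1, 1.02% in PT-S2, 3.05% in PT-S2/S3 and 3.27% in IC-A/IC-B, and 7.5% were lower in PT-S3-2. Lrp2, Cubn and Dab2 were lower in TAL (thick ascending limb), DCT+CNT (distal convoluted and connecting tubule) and PC (principal cells), and Amn in TAL and DCT+CNT, where 5.52% (TAL), 5.44% (DCT+CNT) and 1.08% (PC) of all genes were lower. Lrp2 and Cubn were also lower in IC-A/IC-B, where 1.84% of all genes were. The test behind these p-values was not given in the sources used here.

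**Figure D2:**
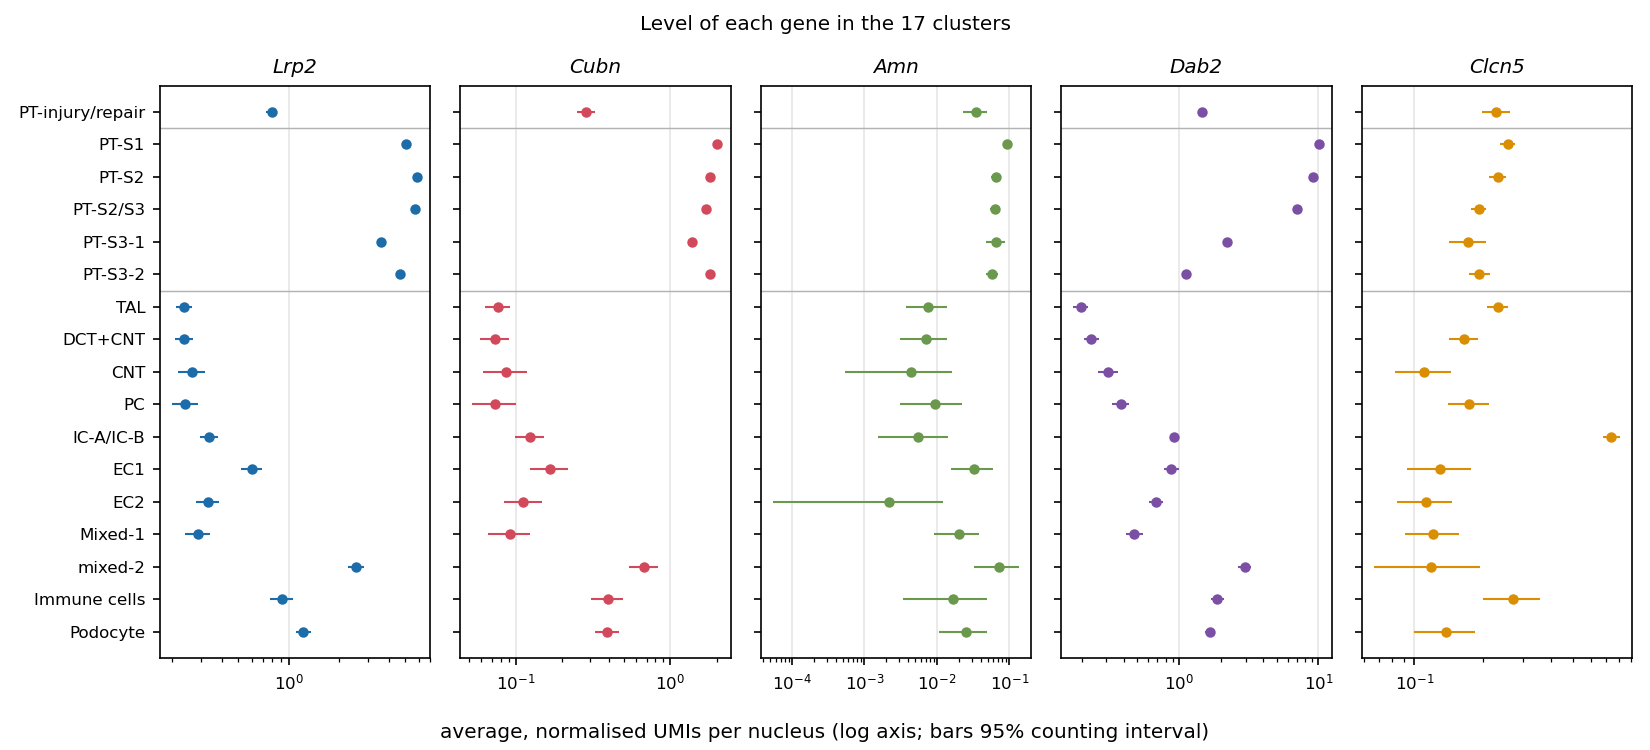
Average of each of the 5 genes in the 17 clusters (horizontal log axis, normalised UMIs per nucleus, a different range in each panel), with 95% counting intervals as bars; lines separate PT-injury/repair, the 5 segment clusters and the 11 other clusters. Lrp2 and Cubn are highest in the 5 segment clusters, Amn in PT-S1 with mixed-2 (0.0710 on 9 UMIs) next within counting error, Dab2 is highest in PT-S1, PT-S2 and PT-S2/S3, and Clcn5 is highest in IC-A/IC-B at 0.739.

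Ordered over all 17 clusters, Dab2 had the most distinct steps and Amn and Clcn5 the fewest. Of the 16 steps between neighbours in the order of levels, the counting interval of the ratio lay above 1 for 13 in Dab2, 9 in Lrp2, 7 in Cubn, 1 in Amn and 1 in Clcn5. The Lrp2 step between PT-S2 and PT-S2/S3 was the narrowest of its 9, at 1.02 with a lower bound of 1.00. For Amn the step was PT-S3-2 over PT-injury/repair, at 1.69 (1.10 to 2.66), and for Clcn5 it was IC-A/IC-B over Immune cells, at 2.73 (2.03 to 3.73). All other neighbours of Amn and Clcn5 lay within counting error of each other, while clusters further apart in the order differed, as PT-S1 and PT-S3-2 did above.

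Clcn5 was the gene whose pattern departed from the proximal tubule. It averaged 0.739 normalised UMIs per nucleus in IC-A/IC-B, which was 2.86-fold its level in PT-S1 (2.55 to 3.21) and 3.17-fold its level in TAL (2.76 to 3.64). In TAL it averaged 0.233, and in Immune cells 0.271 on 49 UMIs. The lowest level was 0.110 in CNT, so over the 17 clusters Clcn5 spanned a much narrower range than the receptor genes.

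RNA set free from broken cells can enter other droplets, so the level of each gene outside the proximal tubule was set beside 15 genes that mark this tubule, each expressed as a percent of its own average over the 5 pooled segment clusters. Lrp2 stood at 4.50% (DCT+CNT) to 48.4% (mixed-2), below the median of the 15 tracers in all 11 other clusters. That median ran between 4.88% (DCT+CNT) and 56.6% (mixed-2). Cubn stood at 4.09% to 37.5% and was above the tracer median in Immune cells alone, at 21.9% against 20.2%. The levels of megalin and cubilin transcripts outside the proximal tubule were therefore near or below the tracer median. They are not read as expression there, and whether low expression adds to free RNA was not tested.

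Dab2 stood above the tracer median in 3 of the 11 clusters. In IC-A/IC-B it was at 13.4%, against a tracer median of 7.60%, in Immune cells at 27.2% against 20.2%, and in EC2, an endothelial cluster, at 9.92% against 8.57%. IC-A/IC-B also had the highest quotient of Dab2 to Lrp2 of any cluster, 1.39 relative to PT-S1 (1.20 to 1.61), whereas no other proximal tubule cluster exceeded PT-S1. Against TAL, Dab2 in IC-A/IC-B was 4.71-fold (4.09 to 5.43) and Lrp2 1.41-fold (1.19 to 1.66). Without the tracer Kap, an androgen-regulated kidney gene with the highest percent in every cluster, Dab2 exceeded the highest of the other 14 tracers in none of the 11 clusters.

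Clcn5 exceeded every tracer, Kap included, in 4 clusters, at 343.1% in IC-A/IC-B, 108.4% in TAL, 80.9% in PC and 76.6% in DCT+CNT. The count depends on the settings, as Clcn5 exceeded every tracer in 1 cluster with PT-S1 as the denominator and in 10 without Kap among the tracers. Amn stood above the tracer median in 9 clusters, but on 3 to 11 UMIs a cluster, so these levels were not resolved at this depth. In mixed-2, for example, Amn rested on 9 UMIs. In EC2, where it stood below the tracer median, it rested on 1.

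**Figure D3:**
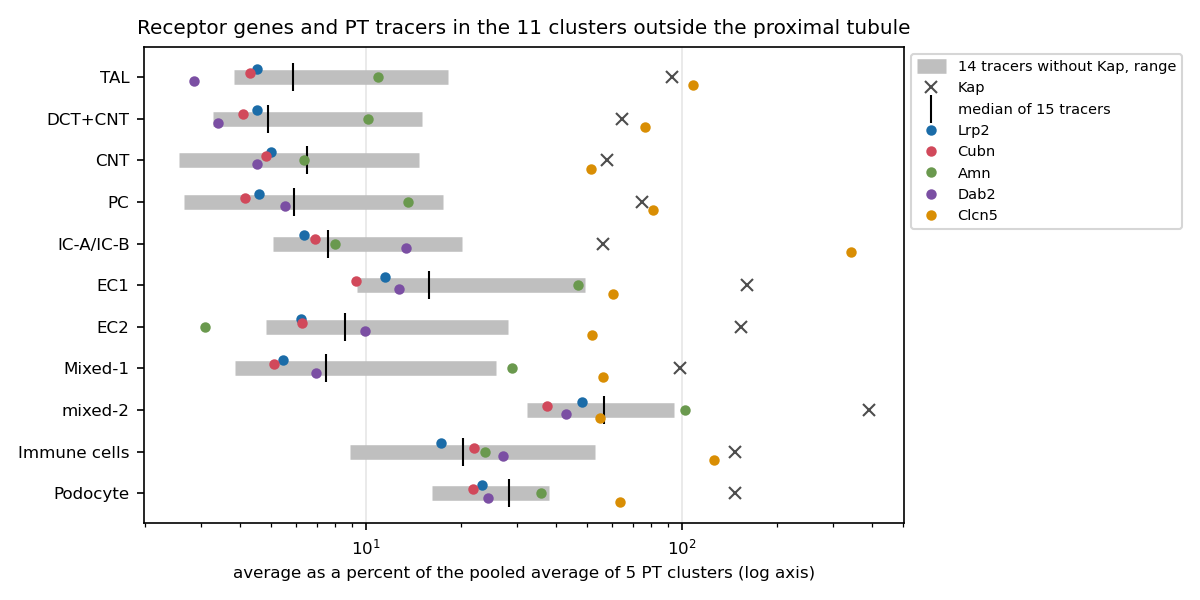
Level in each of the 11 clusters outside the proximal tubule as a percent of the pooled level of the 5 segment clusters (horizontal log axis); coloured points are the 5 receptor genes, grey bars the range of 14 tracers, crosses the tracer Kap and vertical ticks the median of all 15. Lrp2 lies left of the median tick in every cluster, Dab2 right of it in IC-A/IC-B (13.4% against 7.60%), and Clcn5 lies right of the crosses in TAL, DCT+CNT, PC and IC-A/IC-B.

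PT-injury/repair is the cluster of proximal tubule nuclei with injury genes, whose 13 injury markers summed to 11.6 normalised UMIs per nucleus there and to 0.738 to 1.07 in the 5 segment clusters. Markers of other cell types stood beside them, as podocyte markers summed to 1.08 in PT-injury/repair and to 0.0752 to 0.307 in the segment clusters, and thin limb markers to 0.684 in PT-injury/repair and to 0.0908 to 0.357 in the segment clusters. Endothelial markers summed to 0.486 in PT-injury/repair and to 0.116 to 0.576 in the segment clusters, distal tubule markers to 1.60 in PT-injury/repair and to 0.551 to 3.26 in the segment clusters, and the part of any of these in the values below was not tested. Lrp2 averaged 0.792 normalised UMIs per nucleus in PT-injury/repair (649 UMIs) and 5.25 in the pooled segment clusters, a 6.63-fold lower level (6.14 to 7.17). Cubn averaged 0.286 in PT-injury/repair (234 UMIs) and 1.79 in the segment clusters, 6.27-fold lower (5.51 to 7.16). The receptors of the pair were lower to nearly the same degree, and the quotient of Cubn to Lrp2 relative to PT-S1 was 0.909 (0.780 to 1.06). Both levels lay below those of Podocyte (Lrp2 1.23, Cubn 0.390) and Immune cells (0.906 and 0.392), which are not read as expression above. For Lrp2 the ratio of Immune cells to PT-injury/repair was within counting error, at 1.14 (0.958 to 1.36). Lrp2 and Cubn in PT-injury/repair lay above their levels in EC1 (0.603 and 0.166). The part of free RNA in the levels of PT-injury/repair was not tested.

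Dab2 averaged 1.47 in PT-injury/repair (1201 UMIs) and 6.90 in the pooled segment clusters, 4.71-fold lower (4.45 to 4.99). It was nevertheless above its level in PT-S3-2, by a ratio of 1.30 (1.21 to 1.40), so its place among the segment clusters was not below all of them. The quotient of Dab2 to Lrp2 in PT-injury/repair, 0.926 relative to PT-S1 (0.840 to 1.02), was within counting error of PT-S1 and far above the 0.121 of PT-S3-2. It was also within counting error of PT-S1 in EC2 (1.05), Immune cells (1.04) and Mixed-1 (0.836), clusters outside the proximal tubule. IC-A/IC-B lay above PT-S1, and the other clusters outside the proximal tubule lay below it. Slc5a12, the S1 marker, averaged more in PT-injury/repair (0.786) than in PT-S3-2 (0.119), while Slc7a13, the S3 marker, averaged 0.0867 in PT-injury/repair and 5.08 in PT-S3-2. Relative to PT-S1, Slc5a12 in PT-injury/repair was at 0.0534 (0.0493 to 0.0577) and Slc7a13 at 1.53 (1.14 to 2.04). Cyp7b1, another S3 marker, was at 6.27 (4.44 to 8.95) relative to PT-S1.

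Amn averaged 0.0342 in PT-injury/repair on 28 UMIs and 0.0697 in the segment clusters, 2.04-fold lower (1.40 to 3.09). Relative to PT-S1, the quotient of Amn to Cubn was 2.58 (1.71 to 3.89), so the anchor gene was lower by less than the gene of the receptor it anchors. This quotient was also above PT-S1 beyond counting error in TAL (2.13), PC (2.76), EC1 (4.22), Mixed-1 (4.72) and mixed-2 (2.28). There it rested on 5 (PC) to 11 (TAL) Amn UMIs, and in the remaining clusters outside the proximal tubule its interval included 1. Clcn5 averaged 0.230 in PT-injury/repair (188 UMIs) and 0.215 in the segment clusters, a ratio of 1.07 (0.914 to 1.24). A difference of Clcn5 was not detectable at this depth, and the lower bound lies above the ratios of the other 4 genes.

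These contrasts can be read against proximal tubule genes in general. All 15 tracers had a counting interval below 1 in PT-injury/repair, at 4.21% (Slc22a30) to 47.9% (Kap) of their segment cluster level with a median of 15.2%. Lrp2 was at 15.1%, Cubn at 16.0%, Dab2 at 21.2%, Amn at 49.0% and Clcn5 at 106.6%. Among the 12234 genes at or above the expression floor of this table (an average of 0.00862), 10.9% were at least 2-fold lower in PT-injury/repair, and 4 of the 5 receptor genes were. Against the lowest segment cluster of each gene only Lrp2 (0.223) and Cubn (0.206) were 2-fold lower, with Amn at 0.593 and Dab2 at 1.30. None of the 5 was called in PT-injury/repair by the test of that cluster against all other nuclei, with p = 0.101 for Lrp2, 0.129 for Cubn, 0.174 for Dab2 and 1 for Amn and Clcn5 in the authors' deposited table.

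**Figure D4:**
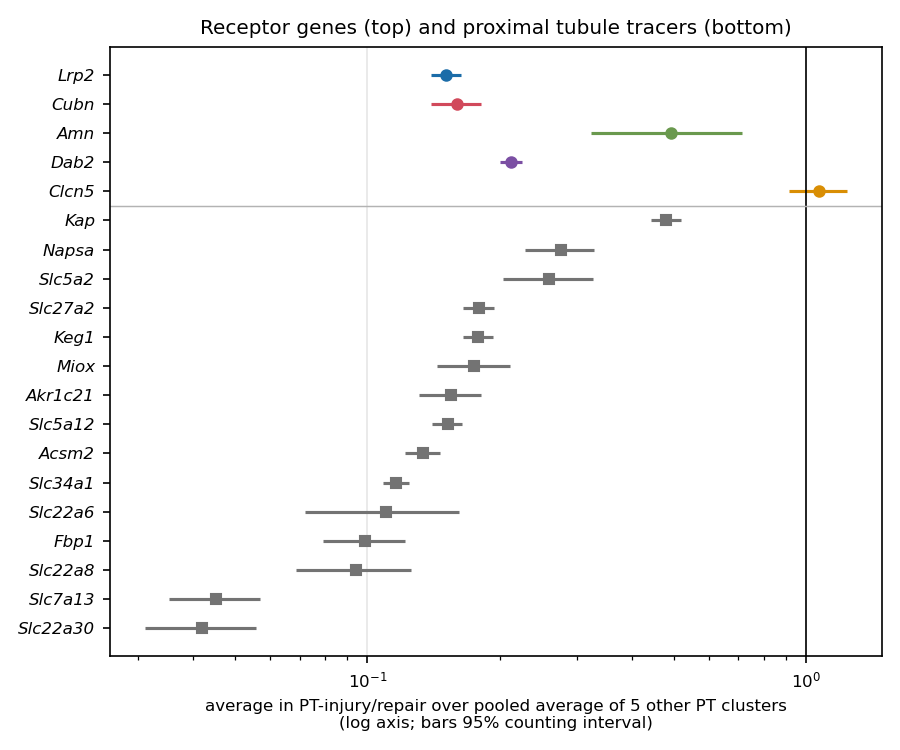
Ratio of the average in PT-injury/repair to the pooled average of the 5 segment clusters (horizontal log axis) for the 5 receptor genes (coloured, above the line) and 15 proximal tubule tracers (grey, below it), with 95% counting intervals as bars and a vertical line at a ratio of 1. Lrp2 (0.151) and Cubn (0.160) lie in the middle of the tracers, Amn (0.490) lies at the level of the highest tracer, and only the interval of Clcn5 reaches 1.

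The comparison of Cis9w with CT9w asks whether the endocytic receptor genes differed in the proximal tubule weeks after the last injection. Labels tie replicate 1 of each group to these pools, so the comparison may rest on 1 library a group. The 5 segment clusters held 22116571 UMIs, more than both pools together (8557662 in Cis9w and 5123727 in CT9w). Pools and clusters thus did not hold the same UMIs. None of the 5 genes was called, each with p = 1 in the authors' deposited table, where 2.13% of all 21312 genes were called in either direction. Lrp2 averaged 7.43 normalised UMIs per nucleus in Cis9w (22718 UMIs) and 6.32 in CT9w (11574 UMIs). Cubn averaged 2.25 in Cis9w (6884 UMIs) and 2.55 in CT9w (4666 UMIs). The receptor genes thus lay on opposite sides of 1, with ratios of Cis9w to CT9w of 1.18 (1.15 to 1.20) for Lrp2 and 0.883 (0.851 to 0.917) for Cubn.

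Amn averaged 0.0869 in Cis9w (266 UMIs) and 0.102 in CT9w (186 UMIs), a ratio of 0.856 (0.707 to 1.04). Dab2 averaged 9.50 in Cis9w (29064 UMIs) and 9.19 in CT9w (16836 UMIs), a ratio of 1.03 (1.01 to 1.05). Clcn5 averaged 0.322 in Cis9w (985 UMIs) and 0.277 in CT9w (508 UMIs), a ratio of 1.16 (1.04 to 1.30). No gene of the 5 differed by as much as 1.2-fold, and the log2 fold changes in the authors' deposited table ran between -0.23 for Amn and 0.23 for Lrp2.

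Of the 10656 genes at or above the expression floor (a mean average of 0.0154), 3.29% were called by the deposited p. The counting interval excluded 1 for 4 of the 5 receptor genes, and for 35.7% of genes at the floor, so such intervals are narrow at this depth and do not speak for animals. Genes at the floor had a median log2 fold change of 0.03 with quartiles of -0.16 and 0.22 in the authors' deposited table, a span that Amn (-0.23), Cubn (-0.18) and Lrp2 (0.23) just left and Dab2 (0.05) and Clcn5 (0.21) did not. Each pool is a share of a fixed total. Taken relative to the 15 tracers, whose sum was 43.7 in Cis9w and 53.8 in CT9w, with 3 of the 15 called lower, the ratio became 1.45 for Lrp2 and 1.09 for Cubn. This scaling raises all ratios alike, and the called tracers were Kap, Slc7a13 and Slc22a30, of which Slc7a13 averaged 1.17 in Cis9w and 4.07 in CT9w. Under the other 3 scalings tried Cubn stayed between 0.861 and 0.894.

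Other genes moved with the treatment in the same pools. The summed injury markers were 2.91 normalised UMIs per nucleus in Cis9w and 1.00 in CT9w, with 9 of the 13 called higher by the deposited p and none lower. S3 markers summed to 5.68 in Cis9w and 15.2 in CT9w, with 7 of all 8 called lower, while S1 markers summed to 16.6 in Cis9w and 14.3 in CT9w, with none of 6 called. Dab2, Slc5a12 and Slc7a13 differ between segments, and the part of these markers in the values of the receptor genes was not tested. Markers of other cell types were found in both pools, and no gene of these lists was at 0 in both. Distal tubule markers summed to 2.12 in Cis9w and 1.53 in CT9w, intercalated cell markers to 0.176 in Cis9w and 0.0721 in CT9w, and thick ascending limb markers to 3.13 in Cis9w and 3.38 in CT9w. Podocyte markers summed to 0.306 in Cis9w and 0.102 in CT9w, endothelial markers to 0.266 in Cis9w and 0.176 in CT9w, and macrophage and dendritic cell markers to 0.0873 in Cis9w and 0.118 in CT9w. Principal cell markers summed to 0.100 in Cis9w and 0.0650 in CT9w, thin limb markers to 0.227 in Cis9w and 0.296 in CT9w, and fibroblast and mesangium markers to 0.0458 in Cis9w and 0.0317 in CT9w.

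**Figure D5:**
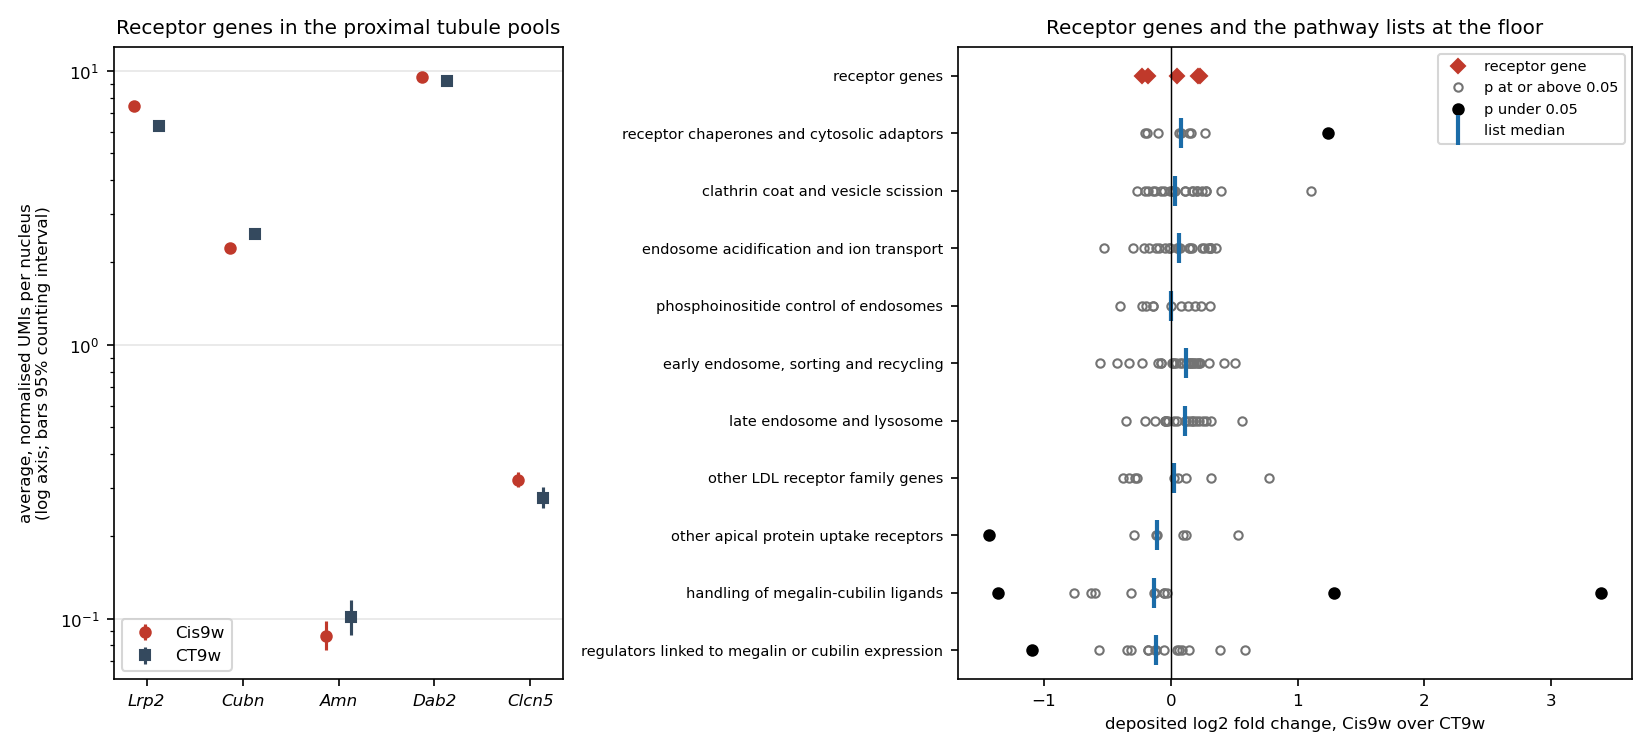
Left, average of each receptor gene in the Cis9w (circles) and CT9w (squares) proximal tubule pools (vertical log axis, normalised UMIs per nucleus) with 95% counting intervals as bars; right, log2 fold change of Cis9w over CT9w in the authors' deposited table for the receptor genes and for the members of 10 pathway lists at the expression floor, with filled points for a p under 0.05 and ticks for list medians. The 5 receptor genes lie between -0.23 and 0.23, and 6 of 153 pathway genes have filled points.

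Whether reads of antisense neighbours entered the values of Dab2 and Cubn was not tested. Gm16311 lies opposite Dab2 and Gm13270 opposite Cubn, and whether counting used the strand was not given in the sources used here. Deposited tables list each pair separately, and how reads where the genes overlap were assigned is uncertain. Gm16311 averaged 1.33 normalised UMIs per nucleus in Cis9w and 1.13 in CT9w, and Gm13270 averaged 0.312 in Cis9w and 0.277 in CT9w, both with p = 1 in the authors' deposited table. In PT-injury/repair, Gm16311 averaged 0.197, against 0.941 in the segment clusters (20.9%, close to the 21.2% of Dab2). Gm13270 averaged 0.0562 in PT-injury/repair, against 0.220 in the segment clusters (25.6%, against 16.0% for Cubn). Its ratio of Cis9w to CT9w was 1.124 (1.009 to 1.255), on the other side of 1 from Cubn at 0.883.

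The remaining genes of the uptake route were taken from 10 lists of 176 genes, of which 173 were measured and 153 lay at the floor. Between Cis9w and CT9w, 3 of the 153 were higher and 3 lower by the deposited test, a share of 3.92% that lay near the 3.29% of all genes at the floor. Without the floor the same 6 were called among the 173 measured, 3.47% against 2.13% of all genes. One of the higher genes, Cyp27b1, reached the floor through its Cis9w level alone. For the 153, the authors' deposited table gave a median log2 fold change of 0.05, against 0.03 for all genes at the floor. None of 23 clathrin coat, 22 acidification, 11 phosphoinositide, 27 early endosome, 21 lysosome and 9 other LDL receptor family genes was called. List medians ran between -0.13 (handling of ligands) and 0.12 (early endosome) in the authors' deposited table.

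The called genes belonged to 4 lists. Cd36, a scavenger receptor and fatty acid transporter gene, fell to 0.254 in Cis9w, against 0.689 in CT9w, a ratio of 0.369 (0.337 to 0.404) with p = 6.53e-06 in the authors' deposited table. Selenop, which encodes the selenium carrier selenoprotein P, a megalin ligand, fell to 0.135 in Cis9w, against 0.348 in CT9w (ratio 0.389, 0.343 to 0.440; p = 3.27e-05 in the authors' deposited table). Mtor, the gene of a growth-controlling kinase, fell to 0.599 in Cis9w, against 1.28 in CT9w, a ratio of 0.469 (0.441 to 0.499) with p = 0.00138 in the authors' deposited table. All of these had their highest cluster average in an S3 cluster, Cd36 and Mtor in PT-S3-2 and Selenop in PT-S3-1, beside the lower S3 markers given above. The part of the segments in these values was not tested.

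Vitamin D reaches proximal tubule cells bound to a carrier that megalin takes up, and both enzyme genes of its handling were higher. Cyp24a1, which encodes the inactivating 24-hydroxylase, rose to 0.574 in Cis9w, against 0.234 in CT9w, a ratio of 2.45 (2.20 to 2.73) with p = 0.00101 in the authors' deposited table. Cyp27b1, which encodes the activating enzyme, rose to 0.0399 in Cis9w, against 0.00328 in CT9w, on 122 UMIs in Cis9w and 6 in CT9w (p = 1.41e-07 in the authors' deposited table). Sh3bp4, the gene of an adaptor that binds clathrin coat proteins, rose to 0.0588 in Cis9w, against 0.0246 in CT9w, a ratio of 2.40 (1.72 to 3.40) with p = 0.0346 in the authors' deposited table. Cyp24a1 and Cyp27b1 had their highest cluster average in PT-S1, and Sh3bp4 had its highest in TAL. The chaperone gene of megalin, Lrpap1, was not called, at 0.303 in Cis9w and 0.346 in CT9w.

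In PT-injury/repair, Lrp2, Cubn and Dab2 were lower relative to the segment clusters than most genes of the route that serves them. Of 161 pathway genes at the floor of the cluster table, 24 (14.9%) were at least 2-fold lower in PT-injury/repair than in the segment clusters and 15 (9.32%) at least 2-fold higher, against 10.9% lower and 21.1% higher among all genes at the floor. Of the 161, 6 reached the floor through PT-injury/repair alone and 4 through the segment clusters alone. None of 24 clathrin coat genes was 2-fold lower, and the median ratio was 1.05 for this list, 1.01 for early endosome genes and 0.935 for lysosome genes. The median was 0.742 for acidification genes, 0.670 for regulators linked to megalin or cubilin expression and 0.572 for genes that handle the ligands. Over all genes at the floor the median log2 ratio was 0.18, and over the pathway genes it was -0.12.

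Regulators held the most 2-fold lower genes, 7 of 16 (43.8%), and genes that handle the ligands had a near share, 5 of 12 (41.7%). Among all genes at the floor the share was 10.9%. Ppara, the gene of a fatty acid sensing nuclear receptor, averaged 0.232 in PT-injury/repair and 1.43 in the segment clusters, 6.15-fold lower. Hnf4a, a transcription factor gene of proximal tubule identity, averaged 0.209 in PT-injury/repair and 1.24 in the segment clusters, 5.93-fold lower. Pparg, the gene of a nuclear receptor of fat storage, was the 1 regulator at least 2-fold higher, at 0.103 in PT-injury/repair and 0.00499 in the segment clusters with an interval of 14.5 to 29.4 for the ratio, and it reached the floor through PT-injury/repair alone. Between Cis9w and CT9w neither Ppara nor Hnf4a was called, and Hnf4a averaged 1.57 in Cis9w and 1.71 in CT9w.

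Among acidification genes, Atp6v0a4, which encodes a subunit of the proton pump, averaged 0.349 in PT-injury/repair and 1.48 in the segment clusters, 4.24-fold lower. Slc9a3, the gene of the apical sodium/proton exchanger NHE3, averaged 0.209 in PT-injury/repair and 0.657 in the segment clusters, 3.15-fold lower. Clcn3, the gene of a related endosomal exchanger, averaged 0.314 in PT-injury/repair and 0.493 in the segment clusters, a ratio of 0.636. Clcn5, which was not part of this list, had a ratio of 1.07. Lrpap1, which encodes the chaperone RAP that escorts megalin to the surface, averaged 0.0806 in PT-injury/repair and 0.245 in the segment clusters, 3.05-fold lower. Rab11fip3, the gene of a recycling endosome adaptor, was 3.54-fold lower, and Inpp5b, the gene of a phosphoinositide phosphatase related to OCRL, 3.35-fold lower.

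Some genes of the coat and of recycling were higher in PT-injury/repair, at shares below that of all genes. At least 2-fold higher were 4 of 24 clathrin coat genes (16.7%) and 2 of 27 early endosome genes (7.41%). Among receptor chaperones and cytosolic adaptors 3 of 10 were (30%), and among all genes at the floor 21.1%. Ehd4, the gene of a membrane-shaping ATPase of recycling endosomes, averaged 0.144 in PT-injury/repair and 0.0142 in the segment clusters, a ratio of 10.2 (7.94 to 13). Hip1, the gene of a clathrin-binding adaptor, averaged 0.120 in PT-injury/repair and 0.0160 in the segment clusters, a ratio of 7.49 (5.79 to 9.64). Sh3bp4, called higher in Cis9w above, averaged 0.178 in PT-injury/repair and 0.0204 in the segment clusters, a ratio of 8.73 (7.04 to 10.8). Epn2, which encodes the clathrin adaptor epsin, averaged 0.391 in PT-injury/repair and 0.131 in the segment clusters, a ratio of 2.99 (2.64 to 3.38). The highest averages of these genes lay outside the proximal tubule, for Ehd4 in EC2 (2.00) and for Hip1 in EC1 (1.55). For Epn2 the highest was in EC2 (0.616) and for Sh3bp4 in TAL (0.409). The part of RNA from other cell types in the values of PT-injury/repair was not tested.

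Likeness over the 17 clusters placed megalin and cubilin next to each other. It was measured as Pearson's r of the log2 average with 0.01 added, over 17 clusters and 13433 genes with at least 100 UMIs. The clusters share libraries and the contrast between proximal tubule and the rest, so a high r is a description. Lrp2 and Cubn had r = 0.99, Lrp2 being the closest of all genes to Cubn, and A1cf, the gene of an RNA-binding cofactor of RNA editing, the closest of all to Lrp2. After A1cf, the genes most like Lrp2 outside the set were the potassium channel gene Kcnj15, the brush border scaffold gene Pdzk1, the amino acid transporter gene Slc6a20b and the cytidine deaminase gene Cda. Those most like Cubn were Agxt2, Slc6a20b, Hgd, Keg1 and A1cf, of which Agxt2 and Hgd encode enzymes of amino acid metabolism.

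Dab2 was most like Tnfaip8 (r = 0.98), then its antisense neighbour Gm16311 (r = 0.96), the phosphate transporter gene Slc34a1, Folh1 and the glucose transporter gene Slc2a2. Amn was most like Anapc15, the folate receptor gene Folr1, Fmo4, the villin gene Vil1 and Sel1l3, with r between 0.94 and 0.95. Clcn5 was most like Atp6v0b, the gene of a proton pump subunit (r = 0.89), then Dmxl1, Ralgapa2, A930019D19Rik and Cpeb2. Under Spearman's rho none of the 5 genes named for Clcn5 and 1 to 4 of those named for each other receptor gene were again among the closest 5, and with 0.1 added in place of 0.01 it was 2 or 3 for each. With the other 4 receptor genes Clcn5 had r between -0.02 and 0.20, whereas Lrp2 had r = 0.92 with Amn and 0.90 with Dab2.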

How the data were processed

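Per the labels' protocols, nuclei of 4 kidney samples were released by homogenisation and counted in a droplet 3' assay. The submitters' processing notes name Cell Ranger 5.0.1 and mm10. Clustering, filters on nuclei and the handling of doublets and free RNA were not given in the sources used here. Both tables' averages are deposited as a signal (normalised UMIs per nucleus), with every column scaled by the authors to 2008 per column in the cluster table and 2797 in the proximal tubule table. Values were compared within a table only. The columns of PT-injury/repair are headed by a cluster number, and the name stands above them in the upper header line of the deposited table. The log2 fold changes, of each cluster against all other nuclei or of Cis9w against CT9w, and the p-values are deposited columns per the file headers, and any adjustment of them was not given in the sources used here. Labels tie replicate 1 of each group to the proximal tubule table and replicate 2 to the cluster table, so how many libraries per group each table pools is uncertain.

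UMI sums were recovered from the step of each column, whose inverse is the sum of size factors (3060 for Cis9w, 1832 for CT9w in the proximal tubule table). Ratios have Clopper-Pearson and levels exact Poisson 95% intervals (Python 3.11.15, scipy 1.17.1). Intervals of quotients are normal approximations on the log scale. With 1 column a group, no count test across samples could be run, and the counting interval excluded 1 for 3800 of 10656 genes at the floor. The expression floor is the median gene's mean average. The recovery and the intervals were tested on simulated data. Pathway genes were named when called at the floor, or as up to 3 further genes per list with the largest average; those lower or higher in PT-injury/repair, and the antisense genes, were named after their values were seen. The 5 genes, the lists and the tests were chosen with earlier results of these data known. Alternatives covered the scaling, the pooled clusters, the p threshold, the floor, the denominators and the likeness measure.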

Additional observations from a re-analysis of the deposited data

How the results depend on the processing

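Against the lowest of the segment clusters in place of their pool, the ratio of PT-injury/repair became 0.223 for Lrp2, 0.206 for Cubn, 0.593 for Amn, 1.33 for Clcn5 and 1.30 for Dab2, whose direction turned. Rescaling by the median ratio over genes gave 0.138 for Lrp2 and 0.195 for Dab2, and an unweighted mean of the segment clusters 0.248 for Dab2. For Cis9w over CT9w, values relative to the tracers were 1.45 for Lrp2, 1.09 for Cubn and 1.05 for Amn, both of which changed side of 1, 1.27 for Dab2 and 1.43 for Clcn5. This scaling divides by a tracer ratio of 0.813 (log2 -0.30). Rescaling by the median ratio gave 1.15 for Lrp2 and 1.01 for Dab2. Leaving out mitochondrially encoded genes or the 50 most abundant genes moved none of the 5 ratios beyond their counting intervals. No receptor gene was called at a p under 0.01 or past 2-fold, and 4 were by counting interval. At a p under 0.01, Lrp2 and Cubn were each higher in 1 cluster instead of 2. With PT-S1 as the denominator Clcn5 exceeded every tracer in 1 cluster. Without Kap it did in 10 and Amn in 2, and counting intervals below 1 put 58 pathway genes lower in PT-injury/repair instead of 24; both of these settings were chosen after seeing the data. Of the 5 genes most like each receptor gene, Spearman's rho kept 0 (Clcn5) to 4 (Dab2). No paired analysis was possible because the columns carry no sample, and leaving out each replicate was not run for the same reason. Levels of Amn outside the proximal tubule rest on at most 11 UMIs a cluster.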
